A study of Homo sapiens with 10 samples.

Results

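The genes described here are those that encode the SR proteins, the heterogeneous nuclear ribonucleoproteins and the core protein subunits of the spliceosome, and the data are the peaks of ZMYND8 and FLAG-ZMYND8 at and in these genes. Members were the protein-coding genes of GENCODE release 44 on GRCh37 whose names begin with SRSF, HNRNP, SF3A, SF3B, SNRP or PRPF, together with U2AF1 and U2AF2. The names gave 73 of the 20098 protein-coding genes that lie on chromosome X or an autosome: 12 SRSF, 25 HNRNP, 9 SF3A/SF3B, 12 SNRP, 2 U2AF and 13 PRPF genes. The rule uses names only, but it was set with earlier results of these data known. Spliceosomal genes with other name stems, such as the SNRNP genes, were held in separate lists.

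ZMYND8 is a chromatin reader protein that carries a PHD finger, a bromodomain and a PWWP domain, and ChIP-seq maps the DNA that it contacts in crosslinked chromatin. The cells were HEK293, an established human embryonic kidney line, and chromatin was cut with micrococcal nuclease. The ZMYND8 ChIP (2 replicates) used an antibody to ZMYND8 itself, and its labels describe Flp-In T-REx HEK293 cells with stable 3xFLAG-ZMYND8, either full length or with the N228F substitution, without saying which was used. The FLAG-ZMYND8 ChIP (2 replicates) used an antibody to FLAG in cells that overexpress full-length 3xFLAG-ZMYND8 after induction with 10 nM doxycycline, so that both groups carry the FLAG construct and the tagged group has added protein. There was 1 input for each ChIP. The inputs and the histone acetylation samples (H3K14ac and H3K27ac) are not analysed here. The deposited data are 1 peak list per target, without read counts or replicate names. The depth is therefore unknown, no spread between replicates can be given, and every share below is a description of these lists with no test. The ZMYND8 list holds 15086 peaks and the FLAG-ZMYND8 list 63690, so a gene has more occasions to meet a peak of the second list.

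Splicing removes introns from pre-mRNA in the spliceosome, a machine of small nuclear ribonucleoproteins (snRNPs) that forms anew on each intron. SR proteins (SRSF genes) bind exons through RNA recognition motifs and recruit the machinery through arginine/serine-rich tails, while many hnRNPs bind silencer sequences and oppose it. U2AF marks the 3′ splice site, SF3A and SF3B anchor the U2 snRNP at the branch point, the Sm and snRNP-specific proteins (SNRP genes) build the snRNP cores, and PRPF proteins act in the tri-snRNP and in catalysis. SR protein genes are known for alternative exons and retained introns that send part of their transcripts to nonsense-mediated decay (NMD), a feedback loop that lies in ultraconserved stretches.

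Most splicing factor genes had a ZMYND8 peak near the 5′ end, and most of the remainder had FLAG-ZMYND8 there. A peak was placed by its midpoint and scored against the annotated 5′ end of the gene. ZMYND8 peaks lay within 1 kb at 36 of the 73 members (49.3%), against 28.5% of all protein-coding genes, and within 3 kb at 39 (53.4%), against 34.1%. FLAG-ZMYND8 peaks lay within 1 kb at 56 members (76.7%), against 49.3%, and within 3 kb at 60 (82.2%), against 58.1%. Both lists had a peak within 3 kb at 34 members (46.6%), against 29.4% of all genes. These 34 genes made up 87.2% of the members with a ZMYND8 peak and 56.7% of those with FLAG-ZMYND8, and the same shares over all genes were 86.1% and 50.6%. ZMYND8 alone lay within 3 kb at 5 members, against 951 of the 20098 genes. FLAG-ZMYND8 alone lay there at 26 members, against 5765 of the 20098.

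**Figure D1:**
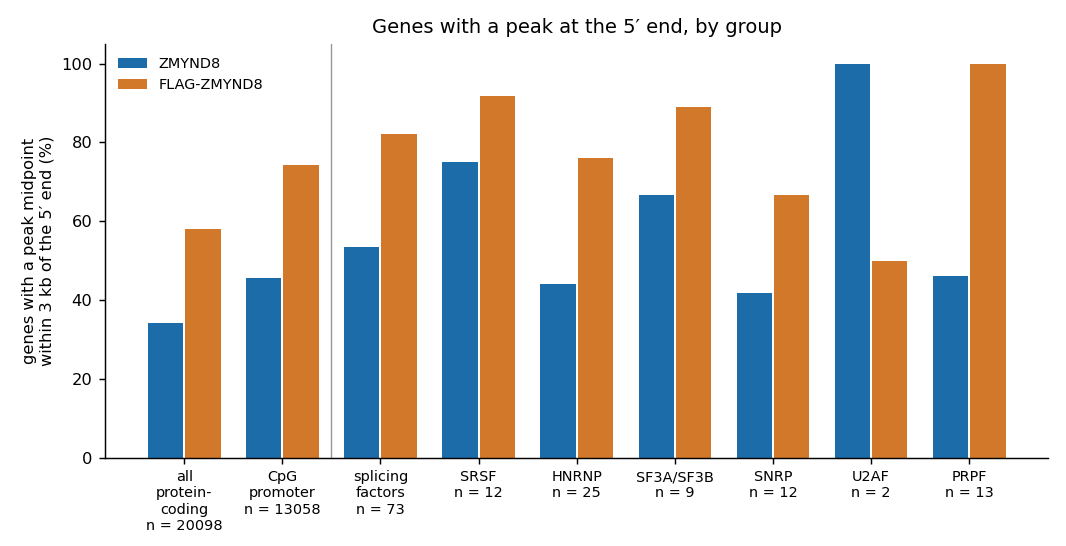
Bars give the share of genes (%) whose 5′ end has a peak midpoint within 3 kb, in the ZMYND8 list (blue) and the FLAG-ZMYND8 list (orange), for all protein-coding genes, those with a CpG promoter, the 73 splicing factor genes and each family, with the number of genes under each group. The SRSF genes reach 75.0% for ZMYND8, against 34.1% of all genes, and all 13 PRPF genes have a FLAG-ZMYND8 peak.

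Most members start in CpG-rich DNA, the promoter type of widely expressed genes. A promoter, taken from 250 bp before to 50 bp after the start of the canonical transcript, was called a CpG promoter where GC content exceeded 50% and the observed CpG frequency exceeded 0.6 of that expected from base composition. It was met by 64 members (87.7%), against 65.0% of all genes. Among these 64 members, 36 had a ZMYND8 peak within 3 kb (56.2%), against 45.6% of all CpG-promoter genes, and 57 had a FLAG-ZMYND8 peak (89.1%), against 74.3%. Among the 9 members without such a promoter, each list had a peak at 3. The gap between members and all genes was therefore narrower within this promoter class. Transcript levels were not measured, and their part in these shares was not tested.

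Peak widths also varied by family. Score is 1 in every row of both lists and ranks nothing, and the minimum width, 151 bp for ZMYND8 and 167 bp for FLAG-ZMYND8, is shared by 53.0% and 54.7% of the peaks. A ZMYND8 peak wider than the minimum lay within 3 kb at 23 members (31.5%), against 23.0% of all genes and 31.5% of CpG-promoter genes, so that the members' share of wider ZMYND8 peaks equaled that of the promoter class. A FLAG-ZMYND8 peak of this kind lay at 51 members (69.9%), against 46.3% of all genes and 61.4% of CpG-promoter genes. The SRSF family supplied 9 of the 23, with 5 from HNRNP, 3 from PRPF and 2 each from SF3A/SF3B, SNRP and U2AF. Among members with a ZMYND8 peak, the widest one had a median of 452 bp in SRSF genes, 170 bp in PRPF genes and 151 bp in each of the HNRNP, SF3A/SF3B and SNRP families, against 234 bp over all genes with such a peak. For FLAG-ZMYND8 the medians were 656 bp in SRSF, 613 bp in HNRNP, 373.5 bp in SNRP, 355 bp in PRPF and 323.5 bp in SF3A/SF3B genes and 301 bp at U2AF2, against 312 bp over all genes.

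**Figure D2:**
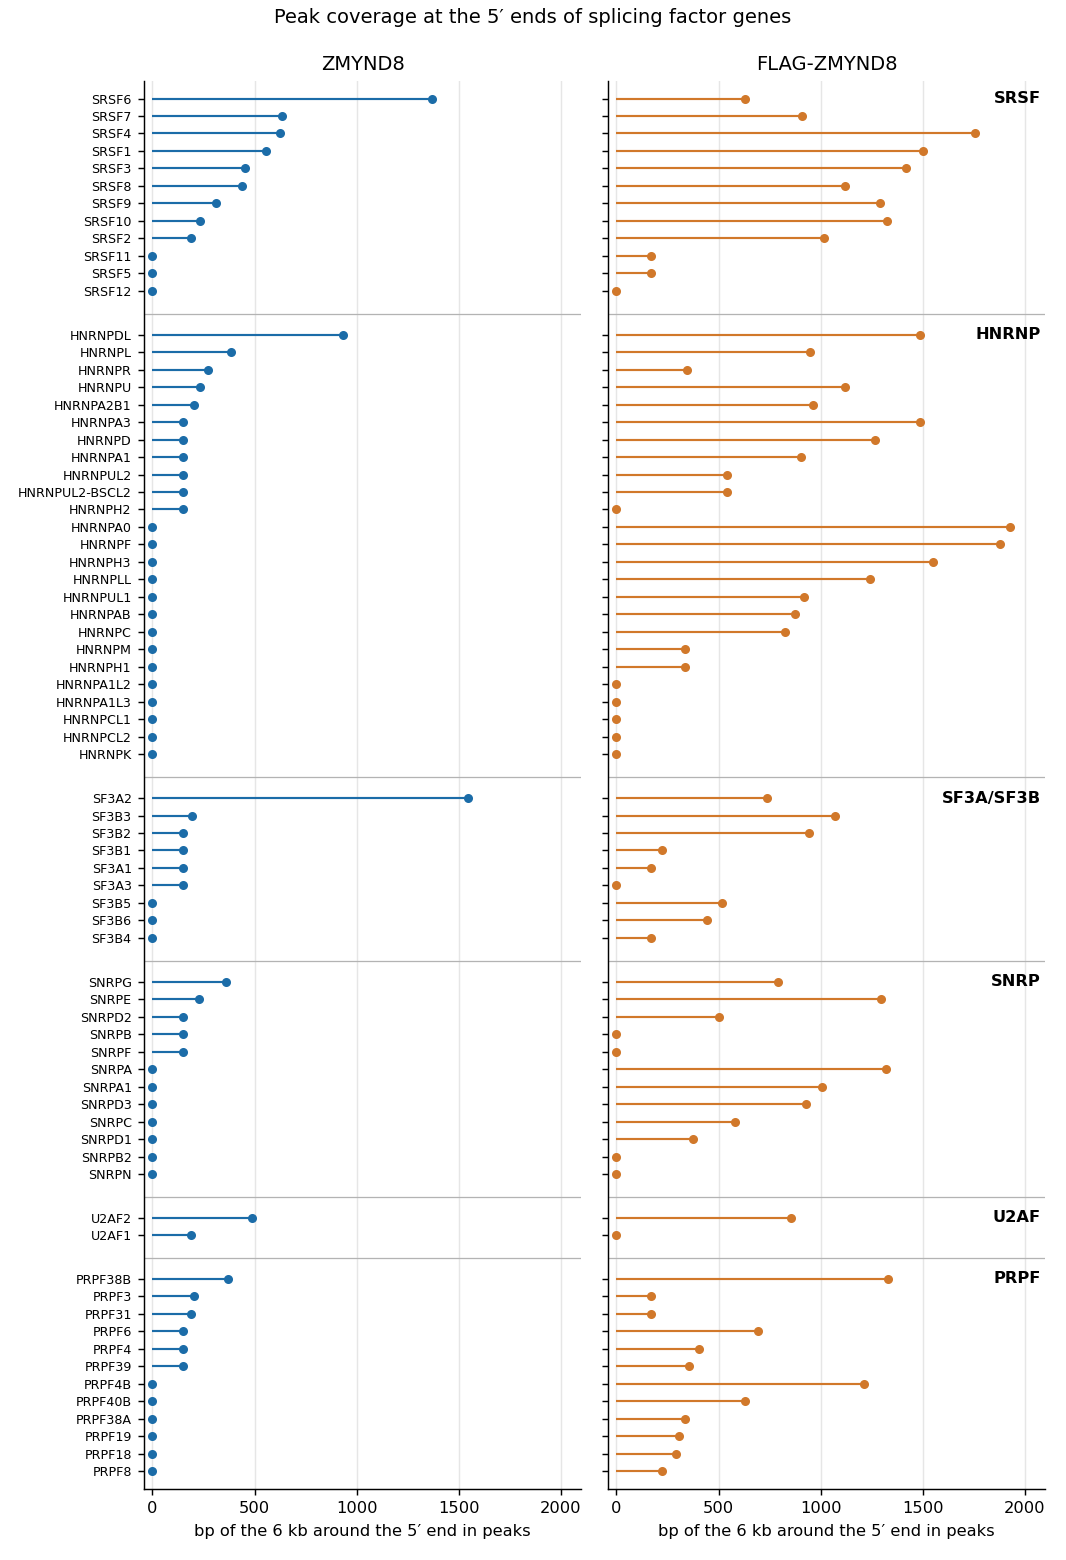
Each line gives the bp that peaks cover in the 6 kb around the 5′ end of a member, for the members named here, ZMYND8 on the left and FLAG-ZMYND8 on the right, grouped by family and sorted by ZMYND8. Coverage by ZMYND8 is highest at SF3A2 (1548 bp) and SRSF6 (1371 bp) and 0 where no peak lies in the window, while FLAG-ZMYND8 coverage is highest at HNRNPA0 (1926 bp).

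Of the 12 SRSF genes, 11 had FLAG-ZMYND8 within 3 kb (91.7%), and 9 of these had ZMYND8 as well (75.0% of the 12). The shares of CpG-promoter genes were 74.3% and 45.6%. None of the 9 ZMYND8 peaks was at the minimum width, and 8 of them overlapped a FLAG-ZMYND8 peak. The widest ZMYND8 peak was at SRSF6, an activator of exon inclusion, where 1371 bp (chr20:42085907-42087277, rank 376 of the list by width) were centered 59 bp inside the gene and took in 256 coding bases and 141 other exon bases, with a FLAG-ZMYND8 peak of 463 bp centered 3 bp inside. SRSF1, the founding SR protein, had 555 bp of ZMYND8 (chr17:56084423-56084977) centered 7 bp inside the gene and 1333 bp of FLAG-ZMYND8 centered at 375 bp. At SRSF4, a member with a long arginine/serine-rich tail, the order of widths was the same, with 626 bp of ZMYND8 at 435 bp and 1755 bp of FLAG-ZMYND8 at -20 bp (chr1:29507555-29509309), the widest FLAG-ZMYND8 peak at any member and rank 186 of its list. These loci thus differed in which list had the wider peak, with ZMYND8 wider at SRSF6 and FLAG-ZMYND8 wider at SRSF1 and SRSF4.

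At SRSF7, which has a zinc knuckle beside its RNA recognition motif, the ZMYND8 peak of 635 bp (chr2:38977625-38978259) lay 694 bp inside the gene and the FLAG-ZMYND8 peak of 656 bp at 570 bp. GEMIN6 starts 40 bp from the 5′ end of SRSF7, and both peaks lie inside SRSF7. SRSF3, which also takes part in mRNA export, had ZMYND8 upstream (452 bp at -374 bp) and FLAG-ZMYND8 across its start (745 bp at 54 bp). SRSF2, whose product binds exonic enhancers, was the one gene of the 9 whose peaks did not meet, with 188 bp of ZMYND8 at -611 bp and FLAG-ZMYND8 peaks from 223 bp onward. SRSF10 had 232 bp of ZMYND8 at 767 bp and 5 FLAG-ZMYND8 peaks. SRSF8, an intronless copy related to SRSF2, had 438 bp of ZMYND8 at 724 bp, all of it coding sequence, and 1118 bp of FLAG-ZMYND8. Reads of a copy can be hard to place, and how such reads were treated is not given in the sources used here.

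**Figure D3:**
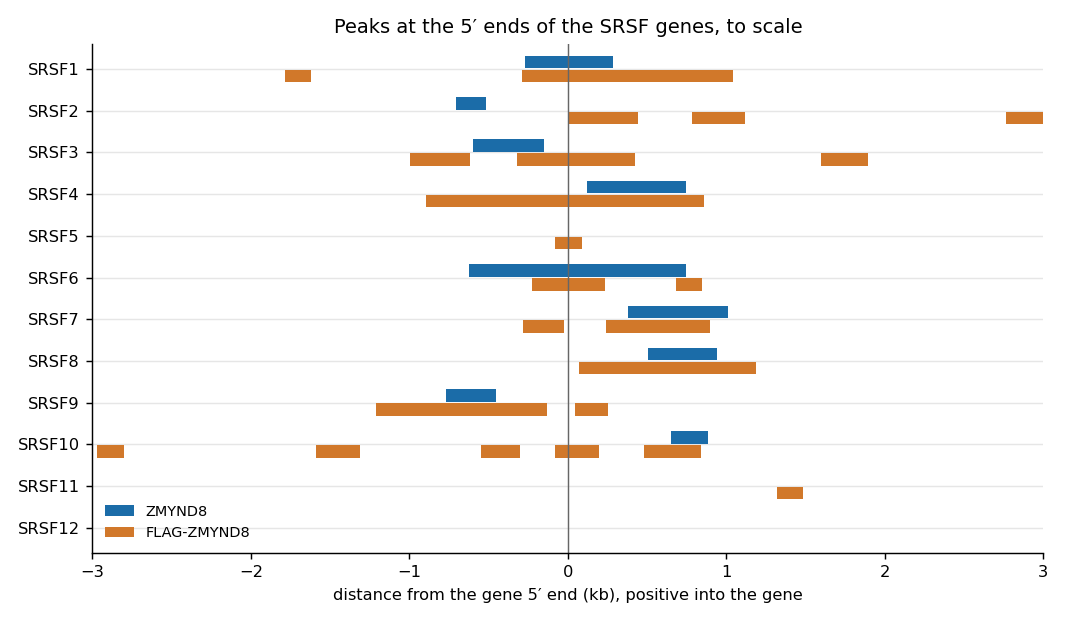
Peaks of ZMYND8 (blue) and FLAG-ZMYND8 (orange) are drawn to scale along 3 kb on each side of the 5′ end (kb) of the 12 SRSF genes, positive into the gene. ZMYND8 and FLAG-ZMYND8 peaks overlap at 8 genes, lie apart at SRSF2, and SRSF5, SRSF11 and SRSF12 have no ZMYND8 peak in this window.

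For a few SRSF genes the annotated 5′ end lies far from the start of the canonical transcript, and the score depends on which is used. The canonical start lies 40242 bp inside SRSF5, 15698 bp inside SRSF11 and 26198 bp inside SRSF9. From the canonical start, SRSF5 had a ZMYND8 peak of 376 bp at 202 bp and SRSF11 one of 202 bp at 320 bp, so both had ZMYND8 at that start. SRSF9 went the other way. Its ZMYND8 peak (313 bp) and widest FLAG-ZMYND8 peak (1081 bp) lay at -611 and -669 bp from the annotated 5′ end, while the ZMYND8 peak nearest to the canonical start was at -19754 bp and FLAG-ZMYND8 had 393 bp at -323 bp. With canonical starts, ZMYND8 was within 3 kb at 10 of the 12 SRSF genes and at 41 members in all, and within 1 kb at 39. SRSF12 had no peak within 3 kb by either measure, and its nearest ZMYND8 peak was at -28279 bp.

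The stretches below are 150 bases each from DNA covered by both lists, shown because they are where the antibody to ZMYND8 and the antibody to FLAG met at SR protein genes. They are reference sequence of GRCh37 in the direction of transcription, and capitals mark CpG. The SRSF1 stretch is chr17:56084731-56084880 (minus strand), 124 to 273 bp before the canonical start, with 15 CpG and 56.0% GC. The SRSF3 stretch is chr6:36561822-36561971 (plus strand), 168 to 317 bp before the start, with 14 CpG and 60.7% GC. The SRSF6 stretch is chr20:42086343-42086492 (plus strand), 44 to 193 bp before the start, with 17 CpG and 65.3% GC. All 3 lie upstream of the annotated gene.
SRSF1: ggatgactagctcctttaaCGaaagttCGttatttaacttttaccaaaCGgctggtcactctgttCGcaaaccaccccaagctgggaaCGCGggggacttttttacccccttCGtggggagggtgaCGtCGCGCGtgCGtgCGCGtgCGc
SRSF3: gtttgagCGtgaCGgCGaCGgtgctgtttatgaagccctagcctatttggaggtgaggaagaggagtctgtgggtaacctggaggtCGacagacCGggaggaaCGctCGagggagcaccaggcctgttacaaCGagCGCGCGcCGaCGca
SRSF6: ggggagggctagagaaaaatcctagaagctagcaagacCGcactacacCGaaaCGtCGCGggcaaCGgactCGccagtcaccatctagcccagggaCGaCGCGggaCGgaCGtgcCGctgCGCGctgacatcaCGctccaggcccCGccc

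The pair of U2AF subunits, which read the polypyrimidine tract and the terminal AG of the intron, differed from each other. U2AF2, the large subunit, had a ZMYND8 peak of 488 bp at 1414 bp and 4 FLAG-ZMYND8 peaks within 3 kb, the widest 301 bp at -735 bp. U2AF1, the small subunit, had 188 bp of ZMYND8 centered 2 bp inside the gene and no FLAG-ZMYND8 peak within 3 kb, the nearest lying at -3049 bp. U2AF1 is on chromosome 21, which holds 1.40% of the ZMYND8 list and 0.879% of the FLAG-ZMYND8 list.

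Within 3 kb, ZMYND8 was found at 6 of the 9 SF3A/SF3B genes (66.7%) and FLAG-ZMYND8 at 8 (88.9%), against 45.6% and 74.3% of CpG-promoter genes. SF3A2, a zinc finger subunit of SF3A, had the widest ZMYND8 peak at a member 5′ end, 1548 bp centered at 69 bp (chr19:2236119-2237666, rank 271), and 738 bp of FLAG-ZMYND8 at -55 bp. PLEKHJ1 starts 880 bp from SF3A2, so the peak cannot be assigned to one of them. SF3B3, a scaffold of the SF3B core, had 194 bp of ZMYND8 at 169 bp and 4 FLAG-ZMYND8 peaks. The other 4 ZMYND8 peaks were at the minimum of 151 bp, at SF3A1, SF3A3, SF3B2 and SF3B1, whose product is the subunit that holds the branch point. SF3A3 had no FLAG-ZMYND8 peak within 3 kb. SF3B4, SF3B5 and SF3B6 had FLAG-ZMYND8 alone, 167 bp at -482 bp, 519 bp at -578 bp and 277 bp at -667 bp, all upstream.

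The stretch shared by both lists at SF3A2, chr19:2236969-2237118 on the plus strand, lies 146 to 295 bp after the start in the first intron, with 17 CpG (capitals) and 74.0% GC in 150 bases.
SF3A2: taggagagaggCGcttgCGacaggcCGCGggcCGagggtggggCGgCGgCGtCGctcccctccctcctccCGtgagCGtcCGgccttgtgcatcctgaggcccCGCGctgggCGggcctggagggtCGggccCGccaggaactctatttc

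ZMYND8 was found at 5 of the 12 SNRP genes (41.7%) and FLAG-ZMYND8 at 8 (66.7%) within 3 kb. Both shares were above those of all genes (34.1% and 58.1%) and below those of CpG-promoter genes (45.6% and 74.3%). Among the genes of the Sm ring, which encloses the U1, U2, U4 and U5 snRNAs, SNRPG had 360 bp of ZMYND8 at 231 bp (chr2:70520462-70520821) and 353 bp of FLAG-ZMYND8 at 355 bp, and SNRPE had 228 bp of ZMYND8 at 117 bp and 576 bp of FLAG-ZMYND8 at 206 bp. SNRPB, SNRPF and SNRPD2 each had a ZMYND8 peak of 151 bp, and SNRPB and SNRPF had no FLAG-ZMYND8 peak within 3 kb. FLAG-ZMYND8 alone was found at the Sm genes SNRPD1 and SNRPD3, at SNRPA and SNRPC of the U1 snRNP and at SNRPA1 of the U2 snRNP. SNRPB2, which encodes another U2 protein, and SNRPN, an imprinted Sm gene of brain, had no peak of either list. From the canonical start of SNRPB2 the nearest ZMYND8 peak was 801133 bp away and the nearest FLAG-ZMYND8 peak 839362 bp away. For SNRPN these distances were 483492 and 677259 bp.

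Among the HNRNP genes, ZMYND8 was found at 11 of 25 and FLAG-ZMYND8 at 19 of 25 within 3 kb. Both shares were close to those of CpG-promoter genes (45.6% and 74.3%) and above those of all genes (34.1% and 58.1%). HNRNPDL, whose product binds AU-rich RNA, had the widest ZMYND8 peak of the family at the annotated 5′ end (935 bp at -280 bp, chr4:83351428-83352362) and 4 FLAG-ZMYND8 peaks, and ENOPH1 starts 128 bp away. HNRNPL, which binds CA repeats, had 234 bp of ZMYND8 at -355 bp and a further peak of 151 bp at 1194 bp, and 614 bp of FLAG-ZMYND8 at 1216 bp. HNRNPR (271 bp at 216 bp) and HNRNPU, a nuclear scaffold protein (234 bp at -265 bp), had peaks of both lists side by side that did not meet. At HNRNPH2, on chromosome X, a ZMYND8 peak of 151 bp stood alone at -772 bp. Chromosome X holds 3.37% of the ZMYND8 list and 1.32% of the FLAG-ZMYND8 list.

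HNRNPH1, which binds G-rich tracts and was singled out after its values were seen, had the widest ZMYND8 peak of all members once the canonical start was used. Its annotated 5′ end lies 11113 bp upstream and has no ZMYND8 peak within 3 kb. At the canonical start a ZMYND8 peak of 1926 bp (chr5:179050065-179051990) was centered at -355 bp, and the widest FLAG-ZMYND8 peak had 1226 bp. The stretch of shared DNA printed for it, upstream of the canonical start and free of exons, holds fewer CpG than that of HNRNPDL. The stretches lie at unlike distances from the canonical start, -1232 to -1083 bp at HNRNPH1 and -733 to -584 bp at HNRNPDL. In the 300-bp promoters at the canonical starts the counts were close, 30 CpG at HNRNPH1 and 34 at HNRNPDL. The HNRNPH1 stretch is chr5:179051755-179051904 (minus strand), with 3 CpG and 50.7% GC in 150 bases, and the HNRNPDL stretch is chr4:83352199-83352348 (minus strand), with 9 CpG and 58.7% GC. Capitals mark CpG.
HNRNPH1: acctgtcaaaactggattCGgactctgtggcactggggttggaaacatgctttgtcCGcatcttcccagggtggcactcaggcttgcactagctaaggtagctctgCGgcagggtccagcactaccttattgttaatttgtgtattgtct
HNRNPDL: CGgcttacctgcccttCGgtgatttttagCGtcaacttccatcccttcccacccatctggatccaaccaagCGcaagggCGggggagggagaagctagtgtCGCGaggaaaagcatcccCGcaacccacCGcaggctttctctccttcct

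Of the 8 members with no peak of either list within 3 kb (11.0%, against 37.2% of all genes), 5 are HNRNP genes. HNRNPA1L2, HNRNPA1L3, HNRNPCL1 and HNRNPCL2 are copies of HNRNPA1 and HNRNPC with AT-rich starts of 40.0 to 45.3% GC, where reads can be hard to place. HNRNPK, which binds C-rich RNA, differs from these in having a CpG promoter (68.3% GC, 32 CpG in 300 bp) that it shares with RMI1, 167 bp away. No peak of either list was found within 3 kb of its start. FLAG-ZMYND8 without ZMYND8 was seen at 9 of the 25 HNRNP genes. Over all genes this held for 5765 of 20098, and over CpG-promoter genes for 4527 of 13058. The 9 were HNRNPA0, HNRNPAB, HNRNPC, HNRNPF, HNRNPH1, HNRNPH3, HNRNPLL, HNRNPM and HNRNPUL1. The remaining members with both lists were HNRNPA1, HNRNPA2B1, HNRNPA3, HNRNPD, HNRNPUL2 and HNRNPUL2-BSCL2, a read-through gene that has the same promoter peaks as HNRNPUL2.

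All 13 PRPF genes had a FLAG-ZMYND8 peak within 3 kb, against 74.3% of CpG-promoter genes. A ZMYND8 peak lay at 6 (46.2%), close to the 45.6% of CpG-promoter genes. PRPF38B had the widest peaks of the family in both lists, 369 bp of ZMYND8 at 562 bp (chr1:109235310-109235678) and 1331 bp of FLAG-ZMYND8 at 598 bp. PRPF3 and PRPF31, both of the U4/U6 snRNP, had ZMYND8 peaks of 203 bp at -409 bp and 189 bp at 127 bp, and at PRPF31 the FLAG-ZMYND8 peak of 167 bp fell on the same spot (135 bp). PRPF4, PRPF6 and PRPF39 had ZMYND8 at the minimum width. PRPF8, the protein at the heart of the catalytic center, had FLAG-ZMYND8 alone (221 bp at 417 bp), as did PRPF18, PRPF19, PRPF38A, PRPF40B and PRPF4B.

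Where both lists had peaks at a member, they often fell on the same DNA. Of the 39 distinct ZMYND8 peaks within 3 kb of a member, 28 (71.8%) overlapped a FLAG-ZMYND8 peak by at least 1 bp, and 30 of the 135 on the FLAG-ZMYND8 side (22.2%) did so in return. Over each whole list, which includes peaks far from genes, the shares were 40.0% and 10.7%. At 5′ ends alone, a ZMYND8 peak that overlapped FLAG-ZMYND8 lay within 3 kb at 38.4% of members and 20.4% of all genes. For any ZMYND8 peak these shares were 53.4% and 34.1%. Peaks lay on both sides of the start. Within 1 kb, 22 ZMYND8 peaks were downstream and 14 upstream (61.1% downstream, against 65.9% over all genes), and 51 FLAG-ZMYND8 peaks were downstream and 38 upstream (57.3%, against 60.0%). In the plot of peak position, the first 250 bp of the gene held 19.2 ZMYND8 peaks per 100 members against 7.97 per 100 of all genes. For FLAG-ZMYND8 the values were 24.7 against 12.7. This was the members' highest bin in both lists. In the bins just before and just after it, ZMYND8 was lower in members, 2.74 against 4.4 and 2.74 against 5.97. FLAG-ZMYND8 was higher in both, 12.3 against 7.69 and 16.4 against 12.8. The 5′ end of another protein-coding gene lies within 1 kb at 23 members (31.5%), against 17.5% of all genes, and peaks there cannot be assigned to one gene. Without genes that have such a neighbor within 3 kb, ZMYND8 was within 3 kb at 45.7% of members, against 30.4% of all genes, and FLAG-ZMYND8 at 76.1%, against 53.1%.

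**Figure D4:**
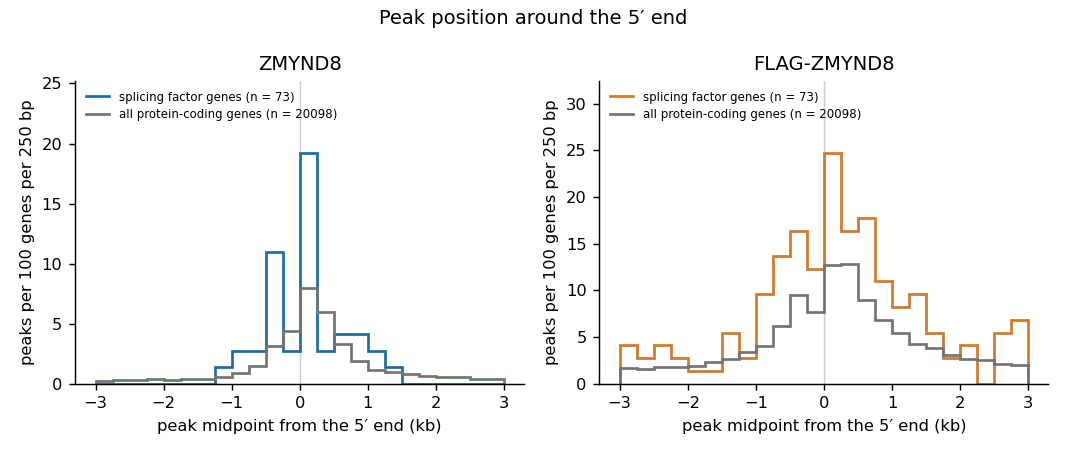
Steps give the number of peak midpoints per 100 genes in bins of 250 bp, by distance from the 5′ end (kb), for the 73 splicing factor genes (color) and all 20098 protein-coding genes (gray), with ZMYND8 on the left and FLAG-ZMYND8 on the right. The members' curve is highest just inside the gene in both lists, at 19.2 and 24.7 peaks per 100 genes.

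Inside the gene bodies, beyond 3 kb from the 5′ end, ZMYND8 was found at about the same share of members as of all genes, and FLAG-ZMYND8 at a larger share. Of the 69 members longer than 3 kb, 14 had a ZMYND8 body peak (20.3%, against 20.7% of all such genes), and 41 had a FLAG-ZMYND8 body peak (59.4%, against 48.8%). The FLAG-ZMYND8 share was 56.1% over CpG-promoter genes, and with peaks wider than the minimum the order turned, with 27.5% of members against 28.9% of all genes. Pooled over all bodies, members had 0.708 FLAG-ZMYND8 peaks per 10 kb against 0.249 over all genes, and 0.0885 ZMYND8 peaks per 10 kb against 0.0443. Members are shorter than all genes (median 16.6 kb against 27.3 kb), and the part of length in these densities was not tested. Cytosolic ribosomal protein genes, with a median of 5.33 kb, had higher densities, 1.47 for FLAG-ZMYND8 and 0.248 for ZMYND8. By family the FLAG-ZMYND8 density was 2.74 in U2AF, 1.06 in HNRNP, 1.03 in SRSF, 0.786 in SF3A/SF3B, 0.372 in PRPF and 0.164 in SNRP genes. Of the 119 distinct FLAG-ZMYND8 body peaks 76 had the minimum width (63.9%, against 54.7% of the whole list). Of the same peaks, 7 overlapped a ZMYND8 peak (5.88%, against 10.7% of the whole list). A further count, 87, touched no exon of the member's own protein-coding, NMD or retained-intron transcripts. Exons of other genes were not scored, and the exon share over all genes was not computed.

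HNRNPC, whose product binds U-rich tracts in introns, had 13 FLAG-ZMYND8 body peaks over a gene of 60.4 kb and no ZMYND8 peak. Of these FLAG-ZMYND8 peaks, 10 were at the minimum width and 1 touched an exon of the gene. HNRNPF, which binds G-rich tracts like HNRNPH1, had 9, among them a peak of 1057 bp at 12951 bp. U2AF2 had 6 over 20.6 kb, the last a peak of 898 bp at chr19:56185305-56186202 that covers the end of its coding sequence (127 bp) and reaches past it. SF3A2 had 6 FLAG-ZMYND8 and 2 ZMYND8 body peaks, and SF3B3 had 4 FLAG-ZMYND8 peaks. PRPF40B, a U1-associated protein gene, had 6, most of them around and beyond its canonical start 55343 bp inside the gene. Likewise, the 7 body peaks of SRSF9 include 4 around its canonical start, where DYNLL1 starts as well, and body peaks of these genes are partly peaks of promoters. SNRPD3 had 2 FLAG-ZMYND8 body peaks, the most in the SNRP family.

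**Figure D5:**
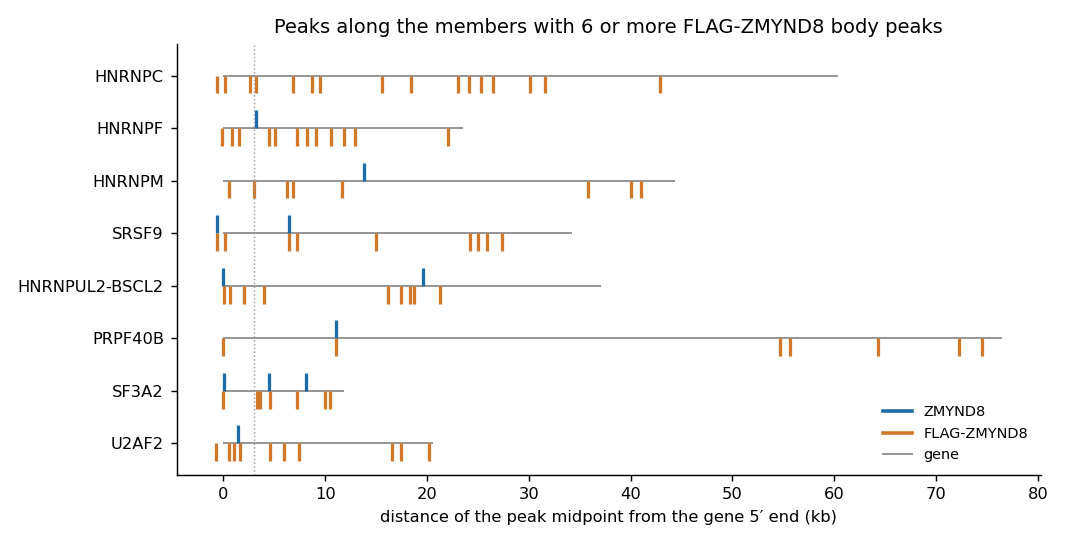
Gray lines are the 8 members with 6 or more FLAG-ZMYND8 body peaks, drawn to scale from the gene 5′ end (kb). Ticks are peak midpoints, ZMYND8 above the line and FLAG-ZMYND8 below, and the dotted line at 3 kb marks where the body begins. HNRNPC carries 13 FLAG-ZMYND8 peaks in the body and no ZMYND8 peak.

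Peaks were also set against the alternative exons of the SR protein genes. Alternative exonic parts were defined as exon bases of NMD or retained-intron transcripts that are exon in no protein-coding transcript of the gene, and the reference used here holds no conservation track, so that ultraconserved elements themselves were not marked. The SRSF genes had 61 such parts in 11 genes (22500 bp). ZMYND8 peaks touched 2 of them and FLAG-ZMYND8 peaks 9, in 7 genes. Of these parts, 27 in 10 genes belong to NMD transcripts, and ZMYND8 touched 1 of the 27 and FLAG-ZMYND8 6, in 6 genes. The same share over all protein-coding genes was not computed. Most of these lie close to the 5′ end, where peaks are frequent. The ZMYND8 hits were a 73-bp part at the very start of SRSF1 and an NMD exon of SRSF7 of 315 bp, which begins 356 bp inside the gene and had 294 of its bases under the ZMYND8 peak and all 315 under the FLAG-ZMYND8 peak. FLAG-ZMYND8 hits more than 15 kb inside a gene were those of SRSF11, a 10-bp part that ends at its canonical start, and of SRSF4. At SRSF4 a FLAG-ZMYND8 peak of 290 bp (chr1:29492165-29492454) covered 53 of the 175 bases of an NMD exon 15836 bp from the 5′ end, and ZMYND8 had no peak there. Over all families, ZMYND8 touched 8 of 309 parts and FLAG-ZMYND8 touched 23. These include parts of the read-through gene HNRNPUL2-BSCL2, which were scored against its own transcripts only. Its part touched by both lists lies at its start and includes coding sequence of HNRNPUL2.

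The intron sequences that adjoin these exons and lie under the peaks are given because they are the DNA next to splice sites of annotated NMD exons. Each begins with the GT of the 5′ splice site of the NMD exon, in capitals, and runs in the direction of transcription on GRCh37. The SRSF4 sequence, chr1:29492165-29492401 on the minus strand, is under the FLAG-ZMYND8 peak (52.7% GC, 4 CpG in 237 bases). The SRSF7 sequence, chr2:38977766-38977965 on the minus strand, is under the ZMYND8 peak (52.0% GC, 12 CpG in 200 bases).
SRSF4: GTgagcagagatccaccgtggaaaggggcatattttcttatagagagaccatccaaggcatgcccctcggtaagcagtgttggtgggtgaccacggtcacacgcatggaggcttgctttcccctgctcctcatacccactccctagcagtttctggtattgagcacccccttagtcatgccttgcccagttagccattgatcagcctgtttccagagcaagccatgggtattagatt
SRSF7: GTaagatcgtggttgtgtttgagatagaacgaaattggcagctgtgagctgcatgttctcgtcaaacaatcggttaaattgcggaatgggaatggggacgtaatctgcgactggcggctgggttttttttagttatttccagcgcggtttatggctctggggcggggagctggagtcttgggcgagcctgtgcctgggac

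Short sequence words that transcription factors are known to bind were counted in the promoters by family. In the 300-bp promoters, on both strands, the ETS word CCGGAAG was present at 22 of the 73 members (30.1%), against 2816 of the 20098 genes, and at 6 of 9 SF3A/SF3B and 7 of 12 SNRP genes but 2 of 12 SRSF and 3 of 25 HNRNP genes. The ETS share was 19.2% over CpG-promoter genes, below the members. It was higher than in the members in proteasome (36.4%), ribosomal protein (35.1%), Mediator and RNA polymerase II (35.7%) and other splicing genes (32.3%). The YY1 word AAGATGG was present at 4 of 9 SF3A/SF3B genes and at 6 members in all (8.22%, against 6.45%). In the same order, those sets had the YY1 word at 20.5%, 18.2%, 16.7% and 13.5%, again above the members. Neither word thus set the members apart from these sets. The TATA word TATAAA was present at 4 of 12 SRSF genes, against 9.82% of all genes, and at 27 to 32 bp before the start in SRSF2, SRSF3 and SRSF7, the usual place of a TATA box. The NRF1 word GCGCATGC was found at 7 members (9.59%, against 4.24%) and the SP/KLF word GGGCGG at 43 (58.9%, against 61.0%). Over CpG-promoter genes the NRF1 share was 6.0%, below the members, and the SP/KLF share 81.2%, above them. Matches of the ETS and YY1 words can overlap, and both are then counted. A word match is a description of the sequence and says nothing of which factor is bound.

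Parts of these promoters are printed to show the words (capitals), in the direction of transcription on GRCh37 and ending before the canonical transcript. The last 47 bases of the SF3B6 stretch and the last 53 of the SF3A3 stretch lie inside the annotated gene. SRSF2 (chr17:74733416-74733468, minus strand) and SRSF3 (chr6:36562030-36562129, plus strand) hold the TATA word. SF3B6 (chr2:24299197-24299366, minus strand), whose product lies at the branch point, holds ETS words and a YY1 word that overlaps an ETS word, and SF3A3 (chr1:38455695-38455794, minus strand) and SNRPG (chr2:70520873-70520982, minus strand) hold an ETS word. Among the promoters printed, ZMYND8 peaks were found within 3 kb at SRSF2, SRSF3, SF3A3 and SNRPG and not at SF3B6. These promoters were picked to show the words and give no share of peaks by word. The ETS-word genes SF3B4, SNRPA1 and SNRPD1, for example, had no ZMYND8 peak there. SRSF11 has the TATA word before its canonical start and had a ZMYND8 peak at that start, though none at its annotated 5′ end.
SRSF2: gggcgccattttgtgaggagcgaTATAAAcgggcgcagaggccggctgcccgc
SRSF3: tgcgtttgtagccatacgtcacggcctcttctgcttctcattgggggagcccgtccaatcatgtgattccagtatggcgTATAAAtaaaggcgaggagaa
SF3B6: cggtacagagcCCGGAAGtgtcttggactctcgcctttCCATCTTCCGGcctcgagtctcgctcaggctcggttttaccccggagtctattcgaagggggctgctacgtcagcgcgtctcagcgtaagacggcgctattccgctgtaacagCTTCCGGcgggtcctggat
SF3A3: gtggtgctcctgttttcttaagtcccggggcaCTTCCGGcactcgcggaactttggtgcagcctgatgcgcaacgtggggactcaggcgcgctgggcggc
SNRPG: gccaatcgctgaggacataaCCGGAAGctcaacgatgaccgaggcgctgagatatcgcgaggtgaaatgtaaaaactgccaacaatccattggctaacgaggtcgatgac

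The other genes of the spliceosome and of splice site choice, 133 genes in 7 lists, were close to the members in share. ZMYND8 lay within 3 kb at 66 of them (49.6%) and FLAG-ZMYND8 at 106 (79.7%). Over all protein-coding genes these shares were 34.1% and 58.1%. Over CpG-promoter genes, a class that takes in 91.0% of the 133, they were 45.6% and 74.3%. By list, ZMYND8 was found at 12 of 21 genes for U1, U5, U4/U6 and minor snRNP proteins, 6 of 8 of the LSM ring, 10 of 20 U2-associated proteins and helicases, 6 of 24 of the Prp19 complex and catalytic core, 6 of 9 of the exon junction complex, 23 of 44 other regulators and 3 of 7 SR protein kinases. The Prp19 list, at 25.0%, was below all genes, and the kinases, at 42.9%, were below CpG-promoter genes. The widest ZMYND8 peak in each list was at SNRNP200, the U5 helicase (958 bp), LSM5 (227 bp), CHERP (950 bp), MFAP1 (678 bp), CASC3 of the exon junction complex (1391 bp), the epithelial regulator ESRP2 (2588 bp, 1848 bp inside the gene) and the kinase SRPK1, which phosphorylates SR proteins (668 bp).

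Other sets of housekeeping genes give a scale for these shares. Among 44 proteasome subunit genes, ZMYND8 was within 3 kb at 43.2% and FLAG-ZMYND8 at 65.9%. Among 77 cytosolic ribosomal protein genes the shares were 44.2% and 85.7%, and among 42 Mediator and RNA polymerase II genes 28.6% and 69.0%. The splicing factor genes, at 53.4% and 82.2%, were thus highest of these 4 sets for ZMYND8 and below the ribosomal protein genes for FLAG-ZMYND8. The sets are small, share promoter features with the members (84.1 to 92.9% have CpG promoters) and were compared with no test.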

How the data were processed

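ZMYND8 and FLAG-ZMYND8 were profiled by ChIP-seq in HEK293 cells, with 2 replicates each, among the 10 samples of the series. Per the labels, the authors used BWA (0.7 for the ZMYND8 samples), HOMER and the hg19 build. The peak caller, its settings, the combination of replicates and the use of inputs are not given in the sources used here. The authors deposited 2 lists of 6 columns with no header, giving positions and a score that is 1 in every row, so width took the place of a score. The deposited positions fit hg19, the same build as GRCh37. No read counts are given and the depth is unknown.

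Members, families, comparison sets and the 7 lists of other splicing genes were chosen with earlier results of these data known. Gene 5′ ends, exons and NMD and retained-intron transcripts came from GENCODE release 44 on GRCh37, and sequences from the GRCh37 genome. Peaks were placed by midpoint within 1 or 3 kb of the 5′ end, or in the body beyond 3 kb, and overlaps needed 1 bp. Shares were described beside the same share over all protein-coding genes, without tests. Placement was tested on simulated data. Named genes were all SRSF and U2AF genes; in each other family those with the 4 widest ZMYND8 peaks within 3 kb, those with no peak or with ZMYND8 alone, and the 2 with most FLAG-ZMYND8 body peaks; and per other list the gene with the widest ZMYND8 peak. Ties were all named. The values of 1 member are not reported here. HNRNPH1 and genes in accounts of all members were named after their values were seen. Alternatives changed the window, the overlap rule, the start site, the width limit and the genes kept. Python 3.11.15, numpy 2.4.6, pandas 2.3.3, pysam 0.24.0 and matplotlib 3.10.9 were used.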

Additional observations from a re-analysis of the deposited data

How the results depend on the processing

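No paired analysis was possible because no result comes from a test and each target has 1 list without replicate names. Leaving out a replicate could not be tried either. Of 44 values under alternative settings, 33 stayed within 1.5 times of the reported value and 11 moved further. With peaks wider than the minimum only, ZMYND8 was found at 30.1% of members within 1 kb, 31.5% within 3 kb and 5.8% in the body, FLAG-ZMYND8 at 27.5% in the body, and both lists at 27.4%. Both lists met the 500-bp window at 28.8%, and reciprocal overlap by 50% left 13.7%. ZMYND8 anywhere in the gene was found at 50.7%. For the SRSF alternative parts, each list had 8.33% of genes with a peak midpoint inside the part, and NMD parts alone gave 8.33% for ZMYND8. The canonical start and the removal of the read-through gene and copies were added after seeing the data and moved no value by over 1.5 times. The members' share was above that of all genes in 44 of 47 settings, reported ones included, the exceptions being ZMYND8 in the body (20.3 against 20.7%) and, with wider peaks only, ZMYND8 (5.8 against 9.58%) and FLAG-ZMYND8 (27.5 against 28.9%) in the body. Leaving out members near another protein-coding start gave 45.7% for ZMYND8 (30.4% of all genes) and 76.1% for FLAG-ZMYND8 (53.1%) within 3 kb.

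The lists give no peak heights and no values below the caller's threshold, so a gene without a peak has no measured level here, and the larger FLAG-ZMYND8 list meets more genes of any set.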

Other observations

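Among the other splicing genes, 22 of 133 had no peak of either list within 3 kb (16.5%), against 37.2% of all protein-coding genes and 19.8% of those with a CpG promoter. Outside the Prp19 list they were MBNL1, NOVA1, NOVA2, RBFOX1, SRRM1, SRRM4, ZRANB2, DHX15, SF1, SUGP1, ZRSR2, RBM8A, CLK4, SRPK2 and SRPK3. The class concerns the 5′ end only, and SRPK2 had 15 FLAG-ZMYND8 peaks in its body. The Prp19 complex and catalytic core had 7 of 24 genes in this class (29.2%), among them BCAS2, BUD31, XAB2 and CTNNBL1. These genes were named after their values were seen.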
